A study of Mus musculus with 4 samples.

Results

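Megakaryocytes are the large marrow cells that shed platelets, and 8 genes that define them or their products were followed across bulk RNA sequencing of marrow stromal cells. The genes were taken by name from the count table, 8 of 17230 rows: Pf4, Ppbp, Gp1ba, Gp1bb, Gp9, Vwf, Treml1 and Nfe2. Cells positive for GFP and tdTomato were sorted from femurs at postnatal day 21. The extraction protocol in the labels names tdTomato alone and a single-cell loading, so whether GFP was also gated is not settled by the labels. All mice carried Cxcl12(GFP/+), an allele in which GFP reports Cxcl12 and marks CXCL12-abundant reticular (CAR) cells, and R26R(tdTomato/+), a lineage mark that a Cre switches on for good. All received tamoxifen at embryonic day 12.5. The Hes1-derived group carried Hes1(CreER/+), and its libraries are numbered replicates 1 and 3. The Fgfr3-derived group carried Fgfr3-iCreER, and its libraries are numbered replicates 2 and 3. The series title sets a fetal perichondrial origin against a chondrocyte origin. Whether 1 mouse or several gave the cells of each library is not stated, so p-values measure only the spread between these libraries, which may be technical.

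Megakaryocytes sit against marrow sinusoids, close to CAR cells, and extend processes that break up into platelets in the blood. Their maturation is driven by thrombopoietin and by the transcription factors GATA1, FLI1, RUNX1 and NF-E2. Platelets store chemokines and clotting proteins in alpha granules and attach to damaged vessels through the glycoprotein Ib-IX-V complex, which binds von Willebrand factor. These genes are markers of the megakaryocyte lineage rather than of stroma, although Vwf is also made by endothelium and Nfe2 by erythroid and other myeloid cells. In bulk libraries fewer cells of a type and less RNA per cell cannot be told apart.

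Promoters are shown for Pf4, Ppbp and Gp1ba, whose levels moved together between libraries, and for Gp9, whose level did not move with them. Each line holds the 250 bases before the RefSeq start (build GRCm38.p6), on the gene's strand. Capitals mark GATA matches (AGATAA with its variant AGATAG, and TGATAA with its variant TGATAG) and ETS matches (CGGAAG with its variant AGGAAG), the core letters read by GATA1 and by FLI1, on either strand. The windows are chr5:90772185-90772434 for Pf4, chr5:90768268-90768517 for Ppbp, chr11:70638872-70639121 for Gp1ba and chr6:87777820-87778069 for Gp9, all on the plus strand.
Pf4: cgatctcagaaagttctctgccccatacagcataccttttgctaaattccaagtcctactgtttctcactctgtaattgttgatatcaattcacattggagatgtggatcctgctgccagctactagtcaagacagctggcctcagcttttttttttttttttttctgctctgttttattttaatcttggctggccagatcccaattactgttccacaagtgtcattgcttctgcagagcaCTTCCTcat
Ppbp: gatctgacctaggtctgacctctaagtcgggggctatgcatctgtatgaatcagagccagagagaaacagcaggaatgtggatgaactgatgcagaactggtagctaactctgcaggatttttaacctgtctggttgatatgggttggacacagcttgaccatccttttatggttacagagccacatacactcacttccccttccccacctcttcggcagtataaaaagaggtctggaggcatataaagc
Gp1ba: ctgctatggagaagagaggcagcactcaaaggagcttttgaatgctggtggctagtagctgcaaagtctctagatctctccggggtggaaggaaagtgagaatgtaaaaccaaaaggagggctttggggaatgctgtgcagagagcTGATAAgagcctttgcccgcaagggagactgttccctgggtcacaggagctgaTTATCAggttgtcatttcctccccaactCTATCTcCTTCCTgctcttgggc
Gp9: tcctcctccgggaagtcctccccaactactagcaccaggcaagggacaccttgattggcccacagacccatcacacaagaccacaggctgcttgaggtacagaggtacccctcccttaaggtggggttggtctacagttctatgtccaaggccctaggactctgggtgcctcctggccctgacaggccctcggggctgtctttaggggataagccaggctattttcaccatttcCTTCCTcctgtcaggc

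Gp1ba held 3 GATA matches and 1 ETS match, Pf4 and Gp9 held 1 ETS match each, and Ppbp held neither. An AGATAA stood after the annotated start of Pf4, at bases 37 to 42. After that of Gp1bb, whose promoter is not shown, an AGGAAG stood on the opposite strand at bases 21 to 26. A promoter window was found for 6 of the 8 genes, of which 2 (Gp1ba and Gp1bb) held a GATA match and 4 an ETS match. The same 2 held both. Among 32817 RefSeq promoter windows of the same length, 26.6% held a GATA match and 39.2% an ETS match, and 9.21% held both. A match describes letters only, and the genes that moved together did not all hold both motifs in this window.

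Apart from Nfe2, the genes were at low levels in these libraries. The sorted cell type was checked by Cxcl12, the gene that defines CAR cells, which ranged from 4180 to 9764 CPM, while the leukocyte gene Ptprc was also present, at 237 and 338 CPM in the Hes1-derived and 67.3 and 123 CPM in the Fgfr3-derived libraries. Libraries held between 22745128 and 26804832 counted reads. The 8 genes had 22921 reads in all, 83.5% of them from Nfe2, and no other gene exceeded 638 reads in a library. Levels are given as CPM, the count scaled to a common library size with TMM factors, and as CPM per kilobase of exon where genes are set against each other. Per kilobase, Nfe2 ranged from 20.1 to 101.8 over the 4 libraries and Pf4 from 4.29 to 34.9. Ppbp ranged from 0.706 to 14.6 and Gp9 from 4.03 to 9.79. Gp1bb ranged from 0.811 to 3.12, Treml1 from 0 to 1.60, Gp1ba from 0.197 to 1.47 and Vwf from 0.148 to 0.392. Nfe2 lay above the other 7 genes in Hes1-derived replicates 1 and 3 and in Fgfr3-derived replicate 3, while Pf4 lay above it in Fgfr3-derived replicate 2. The ranges of Gp9 and Gp1bb did not overlap, while those of the other neighbours in this order did. Pf4 lay above Ppbp, Gp9 above Gp1bb, Gp1bb above Treml1 and Gp1ba above Vwf in every library.

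**Figure D1:**
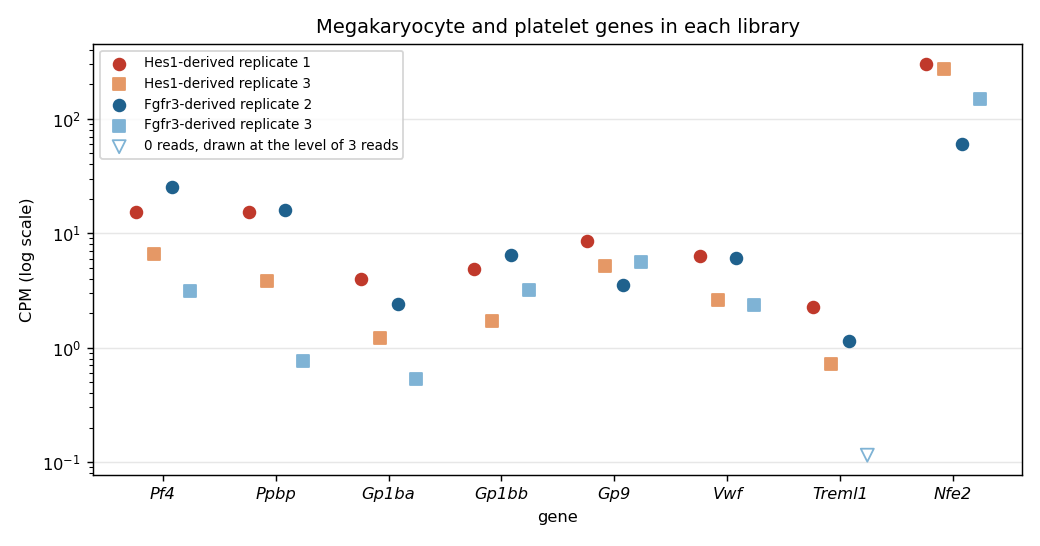
CPM on a log axis of the 8 genes, 1 point per library, red and orange for the Hes1-derived and dark and light blue for the Fgfr3-derived libraries; circles are replicates 1 and 2, squares replicates 3. The open triangle is Treml1 in Fgfr3-derived replicate 3, which had 0 reads and is drawn at the level of 3 reads, 0.115 CPM; for 6 genes both circles lie above both squares.

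The platelet chemokine genes Pf4 and Ppbp had the most reads after Nfe2, and both differed more than 2-fold between the libraries of each group. Pf4 (platelet factor 4, also CXCL4; chr5:90772435-90773383, plus strand, GRCm38) encodes a heparin-binding alpha granule chemokine. Its level was 15.4 CPM in Hes1-derived replicate 1, 6.61 CPM in Hes1-derived replicate 3, 25.2 CPM in Fgfr3-derived replicate 2 and 3.10 CPM in Fgfr3-derived replicate 3. The Fgfr3-derived libraries thus held both the highest and the lowest value, and the groups overlapped. Ppbp (pro-platelet basic protein, also CXCL7; chr5:90768518-90770063, plus strand) encodes the precursor of a neutrophil-attracting chemokine. Its values were 15.4 and 3.83 CPM against 15.8 and 0.765 CPM. Hes1-derived replicate 1 and Fgfr3-derived replicate 2 were nearly alike for Ppbp, and Fgfr3-derived replicate 3 was the lowest library.

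Both chemokine genes lie in a chemokine cluster on chromosome 5, with 2371 bases between them. Cxcl5 had 0.132 and 0.0806 CPM in the Hes1-derived and 2.37 and 0.459 CPM in the Fgfr3-derived libraries. Cxcl3 had 0.440 and 0.846 CPM against 0 and 0.0382 CPM. Cxcl5 and Cxcl3 did not pass the test (adjusted p = 0.074 and 0.063, edgeR).

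The Ib-IX complex is made from Gp1ba, Gp1bb and Gp9. Gp1ba (chr11:70639122-70642036, plus strand) encodes the chain that binds von Willebrand factor. The Hes1-derived libraries had 4.002 CPM (replicate 1) and 1.21 CPM (replicate 3), the Fgfr3-derived libraries 2.41 CPM (replicate 2) and 0.535 CPM (replicate 3). Replicate 3 was the low library in each group, and the groups overlapped. Gp1bb (chr16:18620317-18622403, minus strand) encodes the disulfide-linked partner chain. Its values were 4.84 and 1.69 CPM against 6.51 and 3.21 CPM, with the same library low in each group. The count of Gp1bb is uncertain, because 1902 of its 2087 exon bases are also exons of Sept5 on the same strand. Sept5 itself had 27.7 and 30.7 CPM against 27.1 and 39.6 CPM.

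Gp9 (glycoprotein IX; chr6:87778072-87779768, plus strand) encodes the small subunit that helps bring the complex to the surface. Replicates 1 and 3 of the Hes1-derived group had 8.62 and 5.12 CPM, and replicates 2 and 3 of the Fgfr3-derived group had 3.55 and 5.62 CPM. In the Fgfr3-derived group the order of the libraries was opposite to that of Pf4, Ppbp, Gp1ba and Gp1bb. The remaining subunit gene, Gp5, followed Gp1ba, with 7.70 and 2.42 CPM against 3.82 and 1.30 CPM (log2 fold change 0.98 ± 0.72 SE, adjusted p = 0.41, edgeR). Subunits of 1 receptor therefore did not keep 1 ratio across the libraries.

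Vwf (von Willebrand factor; chr6:125546774-125686679, plus strand) encodes the adhesive protein of alpha granules and endothelium. Replicate 1 of the Hes1-derived group had 6.29 CPM and replicate 3 had 2.62 CPM, while replicate 2 of the Fgfr3-derived group had 6.11 CPM and replicate 3 had 2.37 CPM. Values of the groups were nearly the same, while the libraries within a group differed. The summed endothelial list (24 genes) had the order of Vwf in each group, with 826 and 599 CPM against 688 and 439 CPM, ratios of 1.38 and 1.57. Its genes differed among themselves, and their median ratio was 1.06 in the Hes1-derived and 0.683 in the Fgfr3-derived pair. Esm1, which is also on the CAR stroma list, was a large part of the sum and ran in the order of Vwf (474 and 240 CPM against 407 and 198 CPM). The cadherin gene Cdh5 had the opposite order in the Hes1-derived group (2.02 and 4.47 CPM against 1.58 and 1.30 CPM), and Emcn ranged from 4.22 to 5.05 CPM. The part of endothelial cells in the level of Vwf was not tested. Treml1 (chr17:48359916-48367176, plus strand) encodes TLT-1, an alpha granule receptor that reaches the platelet surface on activation. It had 51 and 18 reads (2.24 and 0.725 CPM) in the Hes1-derived libraries, 29 reads (1.14 CPM) in Fgfr3-derived replicate 2 and 0 reads in replicate 3. A count of 0 allows up to 0.115 CPM there.

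Nfe2 (chr15:103248212-103258403, minus strand) encodes the p45 subunit of NF-E2, the transcription factor needed for platelet release, which also acts on globin genes in erythroid cells. Hes1-derived libraries had 304.1 CPM (replicate 1) and 273.7 CPM (replicate 3), and Fgfr3-derived libraries had 60.0 CPM (replicate 2) and 149.7 CPM (replicate 3). Nfe2 was the 1 gene of the 8 whose groups did not overlap, a property of 62.0% of all tested genes.

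Hes1-derived and Fgfr3-derived libraries were compared with edgeR's quasi-likelihood test over 14330 genes. None of the 8 genes passed at an adjusted p of 0.05, where 11.8% of all tested genes did. At an unadjusted p of 0.05, 1 of the 8 passed, and this was Nfe2, where 30.1% of all tested genes did. DESeq2 and limma-voom each called 1 of the 8, again Nfe2, against 19.9% and 13.5% of the genes they tested. Log2 fold changes were positive (higher mean in the Hes1-derived libraries) for 6 and negative for 2 of the 8, with a median of 0.40 against −0.02 over all tested genes.

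For Nfe2 the means were 289 ± 21.5 CPM (SD, n = 2) and 104.9 ± 63.4 CPM (SD, n = 2). The log2 fold change was 1.46 ± 0.40 (SE; 95% interval 0.52 to 2.41, adjusted p = 0.059, edgeR). The adjusted p was 0.00083 with DESeq2 and 0.038 with limma-voom. With a library left out, the log2 fold change was 2.31 without Fgfr3-derived replicate 3 (adjusted p = 0.0087, edgeR) and 0.96 without Fgfr3-derived replicate 2 (0.087), and without a Hes1-derived library it was 1.38 or 1.54 and did not pass (0.19 and 0.20). Beside it, the summed pan-leukocyte list (15 genes, among them Ptprc and Coro1a) stood at 6048 and 6960 CPM against 1644 and 3441 CPM. The erythroid list (18 genes, among them Klf1) stood at 10982 and 6527 CPM against 1790 and 2719 CPM. Scaled to the pan-leukocyte list the log2 fold change of Nfe2 was 0.16 (adjusted p = 0.84, edgeR). With scaling to the erythroid list, an alternative chosen after seeing the data, it was −0.35 (adjusted p = 0.59, edgeR). With scaling to the CAR stroma list it was 2.11 (adjusted p = 0.0048, edgeR), and with scaling to eGFP it was 2.19 (adjusted p = 0.090, edgeR). These scalings moved the median of all genes by −1.54 (pan-leukocyte), −1.92 (erythroid), 0.78 (CAR stroma) and 0.86 (eGFP). The part of leukocytes or erythroid cells in the level of Nfe2 was not tested.

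The other 7 genes had intervals that include 0 and are wide. Pf4 had a log2 fold change of −0.36 (95% interval −2.36 to 1.63) and Ppbp of 0.21 (−2.70 to 3.13). Gp1ba had 0.82 (−1.24 to 2.88), Gp1bb −0.57 (−2.04 to 0.89) and Gp9 0.58 (−0.48 to 1.64). Vwf had 0.07 (−1.40 to 1.54) and Treml1 1.37 (−1.89 to 4.63). Their adjusted p-values lay between 0.44 for Gp9 and 0.96 for Vwf. The intervals of Pf4, Ppbp, Gp1ba, Gp1bb and Treml1 hold changes of more than 4-fold in at least 1 direction, which were therefore within the error of these libraries. The biological coefficient of variation fitted by edgeR was 57.5% for Pf4, 79.2% for Ppbp and 92.4% for Treml1, against a median of 23.5% over all genes, and 29.1% for Nfe2.

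**Figure D2:**
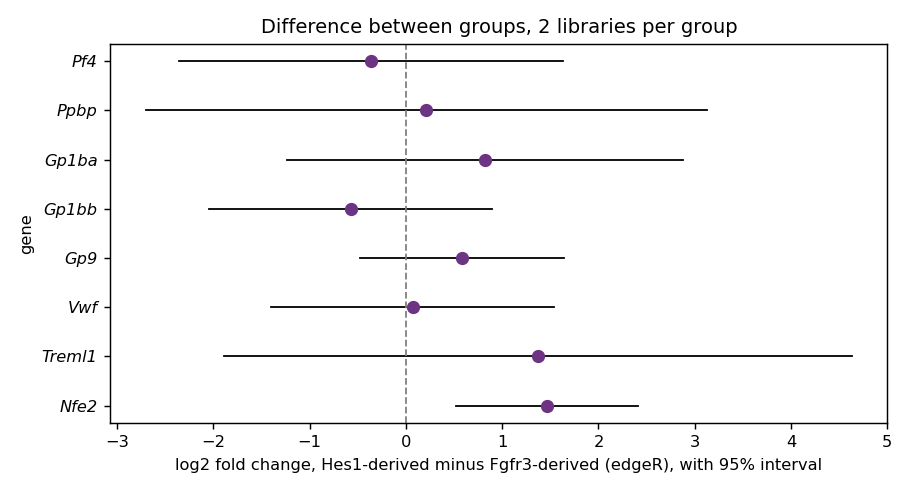
Log2 fold change of each gene, Hes1-derived minus Fgfr3-derived libraries, with its 95% interval from edgeR (2 libraries per group). The intervals of 7 genes cross 0; that of Nfe2 runs from 0.52 to 2.41, before adjustment over all genes.

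Differences between the libraries of a group were larger than those between groups for Pf4, Ppbp, Gp1ba, Gp1bb, Vwf and Treml1. For Gp9 they were slightly larger, at 1.68-fold and 1.58-fold within the groups against 1.50-fold between them. With 1 library on each side, ratios within a group compare libraries, not conditions, and their intervals cover counting error only. Pf4 in Hes1-derived replicate 1 was 2.32 times its level in replicate 3 (95% exact interval 1.92 to 2.81), and in Fgfr3-derived replicate 2 it was 8.12 times its level in replicate 3 (6.44 to 10.4). For Ppbp the ratios were 4.02 (3.20 to 5.10) and 20.7 (13.2 to 34.2). Ppbp thus had the largest ratio of the 8 genes in the Hes1-derived pair, and the largest in the Fgfr3-derived pair among the 7 genes with reads in both libraries.

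The ratios were 3.31 and 4.49 for Gp1ba, 2.86 and 2.03 for Gp1bb, and 2.40 and 2.58 for Vwf. Treml1 had a ratio of 3.09 in the Hes1-derived pair and was at least 9.97-fold higher in Fgfr3-derived replicate 2 than in replicate 3, set against 3 reads. Gp9 had ratios of 1.68 and 0.631 and Nfe2 of 1.11 and 0.401. Pf4, Ppbp, Gp1ba, Gp1bb, Vwf and Treml1 therefore exceeded 2-fold in both pairs.

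A ratio above 2 in the Hes1-derived pair was found for 6 of the 8 genes and for 6.81% of all tested genes. In the Fgfr3-derived pair it was also found for 6 of the 8 and for 5.90% of all tested genes. Both were met by the same 6 of 8 genes, by 1.05% of all tested genes, and by 2.26% of those with a mean under 20 CPM. The lower library in each group is numbered replicate 3, and the labels do not say whether a number marks a shared litter or day.

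**Figure D3:**
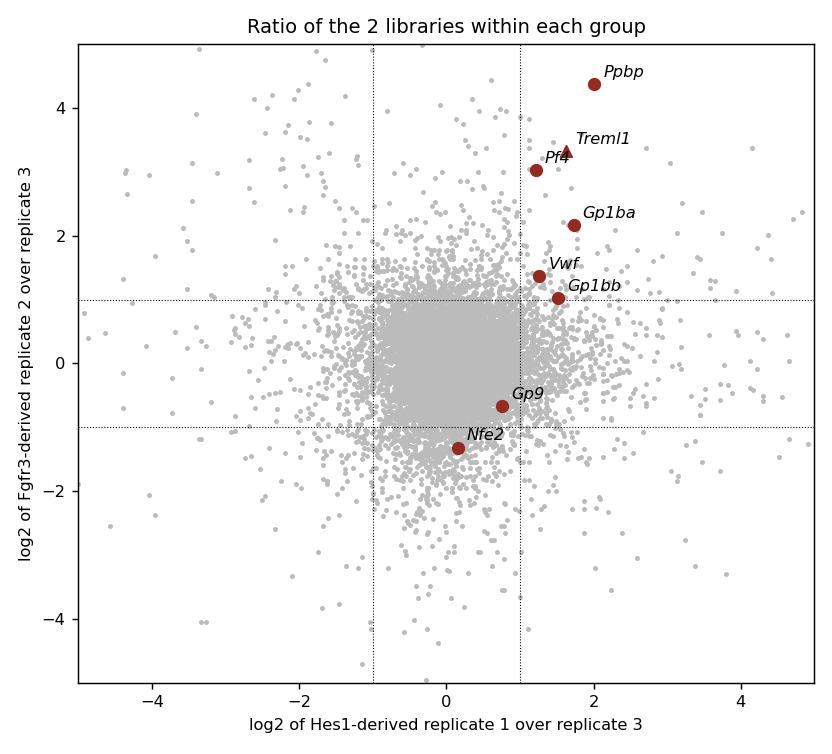
Each point is a tested gene; the x axis is the log2 ratio of Hes1-derived replicate 1 over replicate 3 and the y axis that of Fgfr3-derived replicate 2 over replicate 3, with dotted lines at 2-fold. Red points are the 8 genes, 6 of them beyond 2-fold on both axes. The triangle for Treml1 is drawn at its ratio to 3 reads, because Fgfr3-derived replicate 3 had 0 reads. Other genes with 0 reads in a library are not drawn (288 such genes in all), and 24 lie outside the axes.

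Summed levels were compared with those of other lists. All 8 genes summed to 361 and 295 CPM in the Hes1-derived and 121 and 165 CPM in the Fgfr3-derived libraries, ratios of 1.22 and 0.730 that follow Nfe2. The 7 genes without Nfe2 summed to 56.7 and 21.8 CPM against 60.7 and 15.6 CPM, ratios of 2.60 and 3.89. Leaving out Nfe2 was a choice made with the values known, and the order of this sum carries no independent weight.

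The CAR stroma list (27 genes, among them Lepr and Foxc1) had the same order as those 7 genes, with 29038 and 18992 CPM against 47558 and 33324 CPM, ratios of 1.53 and 1.43. Sums of the endothelial list, the growth signal list (1.46 and 1.41), which holds Cxcl12, and the macrophage and osteoclast list (1.06 and 1.55) had that order as well. So did the platelet granule list (1.23 and 1.05) and the megakaryocyte transcription factor list (1.01 and 1.03), the latter with ratios close to 1. Vcam1 made up much of the macrophage and osteoclast sum, with 1291 and 964 CPM against 1729 and 859 CPM. Median ratios over the genes of that list were 0.730 and 0.873. They were 1.06 and 0.683 for the endothelial, 0.938 and 1.24 for the growth signal and 1.42 and 1.47 for the CAR stroma list. Reads of eGFP had the order of the 7 genes too (6669 and 3204 CPM in the Hes1-derived, 9264 and 6754 CPM in the Fgfr3-derived libraries). Pan-leukocyte and neutrophil sums had the opposite order, the neutrophil list (14 genes, among them Ngp) standing at 28548 and 33620 CPM against 11920 and 25040 CPM. The erythroid sum was higher in replicate 1 of the Hes1-derived pair and in replicate 3 of the Fgfr3-derived pair. The part of any of these in the platelet gene levels was not tested.

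**Figure D4:**
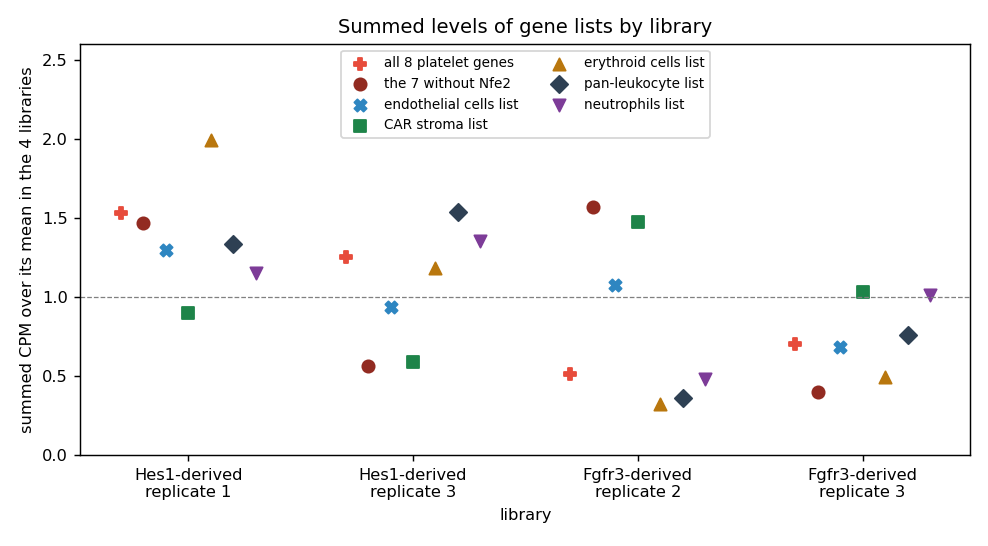
Summed CPM of each gene list divided by its mean over the 4 libraries (dashed line at 1), by library. All 8 genes together are at 1.53 and 1.25 in the Hes1-derived and 0.512 and 0.702 in the Fgfr3-derived libraries; the 7 without Nfe2 are at 1.47 and 1.57 in Hes1-derived replicate 1 and Fgfr3-derived replicate 2 and at 0.563 and 0.403 in both replicates 3.

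Some ratios among the genes also changed between libraries by more than counting error. For each read of Ppbp there were 0.997 reads of Pf4 in Hes1-derived replicate 1 (95% exact interval 0.857 to 1.16) and 1.73 (1.33 to 2.25) in replicate 3. In Fgfr3-derived replicate 2 there were 1.59 (1.40 to 1.81) and in replicate 3 there were 4.05 (2.46 to 6.98). The interval of Fgfr3-derived replicate 3 lay above those of the other 3 libraries. Pf4 per read of Vwf was 2.44 (2.00 to 2.99) and 2.52 (1.88 to 3.42) in the Hes1-derived libraries, whose intervals overlapped. It was 4.12 (3.45 to 4.94) and 1.31 (0.927 to 1.85) in the Fgfr3-derived libraries. Pf4 per read of Gp9 ran from 0.551 (0.415 to 0.728) in Fgfr3-derived replicate 3 to 7.09 (5.68 to 8.94) in replicate 2.

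Genes whose pattern over the 4 libraries was nearest to those of Pf4 and Vwf were ranked by the root mean square difference of centred log2 CPM, among 12802 genes. The 5 nearest to Pf4 were Kdm4d, Pcdhga9, Ubd, Zfp418 and Fbln7, with differences from 0.15 to 0.29. Gp1ba was at rank 42, Vwf at 58, Ppbp at 104 and Gp1bb at 256, while Treml1 was at 1624, Gp9 at 9095 and Nfe2 at 12044. Genes near to Vwf were Ccdc39, Cdh17, Napepld and Timp4, with differences from 0.13 to 0.15. With 4 libraries and few reads, many genes come close to any pattern, and the ranks are given as a description.

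Few other genes of the lineage exceeded 2-fold in both pairs. Of 148 further platelet and megakaryocyte genes with a row, in 6 lists, 146 were tested, and 4 of these (Gp5, Clec1b, Slc35d3 and Alox12) exceeded 2-fold in both pairs, or 2.74% against 1.05% of all tested genes. All 4 were among the 52 with a mean under 20 CPM, a share of 7.69% there against 2.26% of all tested genes at such levels. Alox12, the platelet-type lipoxygenase, had 6.99 and 1.97 CPM against 2.76 and 0.229 CPM. Slc35d3, which acts in platelet dense granules, had 4.97 and 2.22 CPM against 12.2 and 4.55 CPM. Tubb1, the platelet beta tubulin, had 2.46 and 1.41 CPM against 1.18 and 0.0765 CPM. Mmrn1, an alpha granule protein, had 9.63 and 9.31 CPM against 6.27 and 1.41 CPM. Itga2b, the alphaIIb integrin, had 10.6 and 9.51 CPM against 21.1 and 7.76 CPM. The collagen receptor gene Gp6 had between 0 and 9 reads and did not pass the low-count filter. None of Gp5, Clec1b, Slc35d3, Alox12, Tubb1, Mmrn1 and Itga2b passed the test between groups.

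Of the 146 genes, 14 passed as higher and 14 as lower in the Hes1-derived libraries, against 5.24% and 6.56% of all tested genes. Their median log2 fold change was 0.12. In the transcription factor list 4 of 21 genes rose, Gfi1b (1.52 ± 0.24 SE), Gata1 (1.40 ± 0.25), Lmo2 (1.20 ± 0.23) and Tal1 (1.36 ± 0.32), and none fell. Scaled to the pan-leukocyte list these log2 fold changes were 0.030, −0.050, −0.26 and −0.041 and none passed, and scaled to the erythroid list all 4 were below 0. Scaled to the CAR stroma list they were 2.23, 2.10, 1.90 and 2.04 and all 4 passed. Scaled to eGFP they were 2.29, 2.16, 1.96 and 2.10 and none passed. Pan-leukocyte and erythroid scaling moved the median of all genes by −1.54 and −1.92. Only 10 of 14330 tested genes passed as higher with either, against 1773 with CAR stroma and 324 with eGFP scaling. The scaled values therefore cannot tell these 4 genes from others. Gata1 stood at 107.0 and 86.8 CPM against 31.0 and 42.7 CPM. All 4 factors also act in erythroid cells, and of 18 tested erythroid markers 17 rose, with a median of 1.70. Of 15 pan-leukocyte genes 11 rose, and of 12 B lymphocyte genes 11 rose. The part of any of these cells in the rise of the 4 factors was not tested. Runx1, another factor of the lineage named after its values were seen, had a log2 fold change of −0.88 and did not pass (adjusted p = 0.064, edgeR).

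Among 20 tested surface receptor genes, Cd36 and Pecam1 rose and 5 fell, namely Pear1, Itgb3, Jam3, Tspan9 and Cd63. Itgb3, the beta3 integrin shared by platelets and osteoclasts, had 20.8 and 19.7 CPM in the Hes1-derived libraries against 54.7 and 72.5 CPM (−1.65 ± 0.24, edgeR adjusted p = 0.016), whereas its platelet partner Itga2b did not pass (−0.52 ± 0.47, adjusted p = 0.51). Pear1 stood at 10.3 and 11.97 CPM against 45.5 and 52.4 CPM. After scaling to the CAR stroma list or to eGFP none of the 5 passed, and all 5 kept their sign. Among them were Pear1 (−1.36 and −1.27), Tspan9 (−1.12 and −1.11), Itgb3 (−0.93 and −0.85) and Jam3 (−0.75 and −0.69). With these scalings only 129 and 19 of 14330 tested genes passed as lower, so few genes of any kind could. Of 26 granule genes none rose and 3 fell, Vegfa (−1.35), Pdgfa (−1.30) and Serpine2 (−1.87). Serpine2, a protease inhibitor, stood at 2430 and 1359 CPM against 6635 and 7204 CPM. These 3 are made by many cell types. After scaling to the CAR stroma list or to eGFP none of them passed. Their log2 fold changes were then −0.54 and −0.47 for Vegfa, −0.56 and −0.50 for Pdgfa and −1.20 and −1.18 for Serpine2. Of the 26 granule genes, 8 and 1 passed as higher with these scalings, as did 1773 and 324 of all tested genes.

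Of 31 signalling genes, Syk, Plek, Btk and Plcg2 rose and the guanylate cyclase genes Gucy1a3 and Gucy1b3 fell. Syk, a kinase also used by B lymphocytes and myeloid cells, stood at 198 and 246 CPM against 45.4 and 76.6 CPM. Gucy1a3 had 20.6 and 26.8 CPM in the Hes1-derived and 147.6 and 94.4 CPM in the Fgfr3-derived libraries (−2.35 ± 0.29, edgeR adjusted p = 0.015). Of 22 cytoskeleton and shedding genes, Bcl2l1 and Was (also on the pan-leukocyte list) rose and Tpm4 and Myl9 fell. Bcl2l1, a survival gene of platelets and erythroblasts, stood at 478 and 310.0 CPM against 82.8 and 119.6 CPM. Of 26 growth signal genes, Cxcr4 and Lyn rose and Lifr and Stat3 fell. Thpo, the thrombopoietin gene, had only 9 and 16 reads against 21 and 21 reads, or 0.396 to 0.828 CPM.

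Over these 6 lists, 28 genes passed, and the calls depended on the libraries. Of the 28, 10 kept their call and direction when Hes1-derived replicate 3 was left out, 11 when Fgfr3-derived replicate 2 was, 23 when Hes1-derived replicate 1 was and 26 when Fgfr3-derived replicate 3 was. Scaling to the CAR stroma list kept all 14 higher and 2 lower calls, and scaling to eGFP kept 6 higher and 0 lower calls. Scaling to the pan-leukocyte list kept no higher and all 14 lower calls. Over all 14330 tested genes the calls leaned the same way. They were 1773 higher and 129 lower with CAR stroma, 324 and 19 with eGFP, and 10 and 5214 with pan-leukocyte scaling. Pan-leukocyte genes (11 of 15 higher, median 1.50) and CAR stroma genes (5 of 27 lower, median −0.69) moved with the groups in these libraries, and their part in the list counts was not tested.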

How the data were processed

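Counts of reads per gene symbol were deposited by the authors for 4 libraries. Build mm10 and the tools HTSeq, TopHat2 2.0.13, Bowtie2 2.2.1, DESeq2, Cuffdiff, Cufflinks and FastQC are named, per the submitters' processing notes, with no role or order; the annotation and strand setting are not given in the sources used here. The 2 deposited tables of transformed values were not used.

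The whole table was fitted with edgeR 4.0.16 (R 4.3.3): genes past its filter (minimum count 10), TMM factors, robust quasi-likelihood test, Benjamini-Hochberg adjustment over all tested genes, threshold 0.05. Each SE was derived from the log2 fold change and the F statistic (size over root F). Alternatives used DESeq2 1.42.0, limma-voom (limma 3.58.1), other scalings, filters and dispersions, and left out each library. The fits were tested on simulated data. The 8 genes, the lists and the tests were chosen with earlier results of these data known. Named are all 8 genes, a fixed set of lineage and marker genes, up to 4 called genes per list and direction, and the 5 nearest to Pf4 and Vwf; some genes this rule names are not reported, and some others were named after their values were seen. Positions and exon lengths are from GENCODE M21 (GRCm38), matched by symbol for all 8 genes.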

Additional observations from a re-analysis of the deposited data

How the results depend on the processing

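No paired analysis was possible because the groups share only the replicate number 3. The count of the 8 genes called, 0 with edgeR as described, was 1 (Nfe2) with the library total alone, with scaling to the CAR stroma list, with DESeq2, with limma-voom, with a minimum count of 50 and at an adjusted p under 0.10, where 12.7%, 13.3%, 19.9%, 13.5%, 15.1% and 21.5% of all tested genes were called. It was 2 with scaling to the pan-leukocyte list (Pf4 and Gp1bb) and 4 with scaling to the erythroid list (Pf4, Ppbp, Gp1bb and Vwf), all lower, where 36.4% and 74.4% of all tested genes were called lower. It was between 0 and 1 when a library was left out. The scalings moved the median of all genes by 0.78 (CAR stroma), 0.86 (eGFP), −1.54 (pan-leukocyte) and −1.92 (erythroid), which sets many directions. Log2 fold changes then turned as follows. CAR stroma scaling gave Pf4 0.49, Gp1bb 0.14, Thpo 0.18, Itga2b 0.36 and Clec1b 0.27. Scaling to eGFP gave Pf4 0.46, Gp1bb 0.093, Thpo 0.28, Itga2b 0.41 and Clec1b 0.24, and limma-voom gave Pf4 0.19. Pan-leukocyte scaling gave Ppbp −1.66, Gp1ba −0.93, Gp9 −0.81, Vwf −1.63, Treml1 −0.49, Gp5 −0.72, Tubb1 −0.23, Mmrn1 −0.51, Gata1 −0.050, Cdh5 −0.43, Lmo2 −0.26, Tal1 −0.041, Plek −0.19, Btk −0.18, Plcg2 −0.26 and Lyn −0.45. Erythroid scaling gave Ppbp −2.19, Gp1ba −1.46, Gp9 −1.37, Vwf −2.13, Nfe2 −0.35, Treml1 −0.96, Gp5 −1.27, Tubb1 −0.60, Mmrn1 −0.80, Gata1 −0.52, Cdh5 −0.64, Pecam1 −0.041, Ptprc −0.18, Cd36 −0.21, Gfi1b −0.43, Lmo2 −0.73, Tal1 −0.54, Plek −0.56, Btk −0.59, Plcg2 −0.69, Was −0.090 and Lyn −0.76. Leaving out a library gave ranges of −1.16 to 1.83 for Pf4, −1.11 to 3.65 for Ppbp, −0.28 to 2.28 for Gp1ba, 0.96 to 2.31 for Nfe2, −1.52 to 0.030 for Gp1bb, −0.69 to 0.92 for Vwf, −0.082 to 1.96 for Gp5, −1.31 to 0.44 for Clec1b and −1.02 to 0.39 for Itga2b. Over all genes, 751 higher and 940 lower calls became 1411 and 1552 with DESeq2. A fit with 1 library in a group assumes that it varies like the other group. Depth limits Treml1 and Gp1ba most, with 98 and 196 reads over the 4 libraries.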
